A study of Homo sapiens with 16 samples.

Results

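The SR proteins and the heterogeneous nuclear ribonucleoproteins (hnRNPs) are the main families of sequence-specific RNA-binding proteins that act on pre-mRNA splicing. Their mRNAs were followed here as 3′ end tag counts in cytoplasmic RNA, for the 12 genes SRSF1 to SRSF12 and for 20 genes with an HNRNP symbol. These 32 genes were taken by symbol, with no limit on a measured value, though earlier results of these data were known. They came from Ensembl IDs named through GENCODE release 44, and all 32 were among the 60107 genes of the count tables.

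The cells were U2OS-TR, a human osteosarcoma line that stably carries the tetracycline repressor, and U2OS-TR/ΔN-RNMT, 1 G418-selected clone of it with an integrated transgene under a tetracycline-regulated promoter. ΔN-RNMT is an inactive form of the cap methyltransferase RNMT that lacks the nuclear localization sequences and stays in the cytoplasm, so its induction was meant to block methylation of caps added there. Of the transgene clone there were 5 uninduced and 5 induced libraries, and of the parental line there were 3 libraries without and 3 with doxycycline. The parental line lacks the transgene and was the comparison for doxycycline alone, in libraries that differed from those of the clone as given below. Cells of the treated groups received 1 μg/ml doxycycline 48 h after plating and were lysed 24 h later, although the treatment label lists doxycycline for every library and the groups were therefore taken from the titles and source names.

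Depth was 12527183 to 23251834 gene counts per library in the transgene line and 1473286 to 3214808 in the parental line. RNMT held 74.3 ± 22.4 scaled CPM, that is counts per 1000000 after TMM scaling (mean ± SD, n = 5), in uninduced and 346 ± 78.0 in induced libraries, with no overlap. Of the bone and mesenchymal markers, COL1A1, RUNX2, SPARC and VIM were detected, while SP7 and BGLAP had 0 counts in all 16 libraries and COL1A2, IBSP and ALPL were at or near 0. A pair of libraries stood apart from their groups: uninduced replicate 5 held the highest uninduced value for 38.9% of all genes tested, and induced replicate 2 the lowest induced value for 32.4%. Their values are given with each called member, beside the log2 fold change without both. Uninduced replicate 3 also differed from uninduced replicates 1, 2 and 4, and it was kept in the fits without that pair. The chi-square between libraries, over its degrees of freedom, was 102.9, 69.6 and 135.5, against 7.31 to 20.1 among replicates 1, 2 and 4. Neither the labels nor the methods say more of the replicates than that they are separate libraries described as biological replicates, and bulk RNA cannot tell fewer cells with a transcript from less of it per cell.

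SR proteins carry RNA recognition motifs and a tail rich in arginine-serine repeats, bind mostly exonic sequences and help the spliceosome to choose nearby splice sites. Many hnRNPs coat nascent transcripts and often oppose that choice, so that the balance of both families sets the outcome of alternative splicing. Several members of either family shuttle to the cytoplasm and act in mRNA export, stability and translation, and many control their own mRNA through alternative exons that trigger its decay.

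A short sequence near the transcription start was shared by several of these genes. RefSeq promoter windows, from 250 bases before to 50 after a start, were held for 30 of the 32 genes, the other 2 being HNRNPA1 and SRSF2. The motif GCCATTT, which holds the core of the sequence bound by the factor YY1, was noticed in these windows and then counted on both strands, so its count is a description. It lay wholly within 25 bases of a start in 7 of the 30 genes, namely 2 of 11 SR protein genes (18.2%) and 5 of 19 hnRNP genes (26.3%), against 1.15% of all genes with a window. Its place is shown for those 7 genes, 5′ to 3′ on the strand of the gene, with the motif in capitals. HNRNPH1 has such a motif at a pair of its starts and has a line for each.
SRSF1: gataaaggcGCCATTTtggaggggc
SRSF3: cggtggtccGCCATTTcgtggacgc
HNRNPC: gactcggggGCCATTTtgtgaagag
HNRNPD: cttccgtcgGCCATTTtaggtggtc
HNRNPH1: cgcccgctgGCCATTTcgtcttagc
HNRNPH1: gcggccgccGCCATTTcctttcctc
HNRNPR: ggcgcgcgcGCCATTTctagtcgtt
HNRNPUL1: gtggcggcgGCCATTTtgagccgct
In GRCh38.p14 these windows are chr17:58007231-58007255 (- strand), chr6:36594355-36594379 (+ strand), chr14:21269412-21269436 (- strand), chr4:82373972-82373996 (- strand), chr5:179623658-179623682 (- strand), chr5:179623389-179623413 (- strand), chr1:23344269-23344293 (- strand) and chr19:41264360-41264384 (+ strand). Each motif began between 3 bases before and 15 bases after a RefSeq start, with the start counted as 0. Anywhere in the windows the motif occurred in 2 SR protein genes (18.2%) and 7 hnRNP genes (36.8%), against 5.39% of all genes. In the response to ΔN-RNMT, 1 of the 7 genes shown was called higher and 0 lower in induced cells. Of the 23 without the motif so near a start, 7 were higher and 2 lower. HNRNPH3 and HNRNPM, which hold it farther off, are among these 23 and were called higher. The median log2 fold changes were 0.41 and 0.39.

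In cells expressing ΔN-RNMT, tags of both families took a larger mean share of the library, though the groups overlapped. The 12 SR protein genes held 0.178% ± 0.0481 of gene counts in uninduced and 0.298% ± 0.0680 in induced libraries (SD, n = 5), and the 20 hnRNP genes 0.353% ± 0.0820 and 0.651% ± 0.113. Most of the SR protein difference lay in SRSF1, which was not called and held 223 ± 401 and 1007 ± 500 scaled CPM. These shares are of total counts. On that scale genes in general leaned upward too, with a middle value of 0.28 log2 over those tested. Uninduced replicate 5, with 0.263% and 0.492%, lay above induced replicate 2, with 0.189% and 0.460%, and these were the libraries by which the groups overlapped. The other uninduced libraries held 0.151% to 0.161% on SR protein genes, and the other induced libraries 0.280% to 0.363%. In the parental line the share was 0.245% ± 0.0128 without and 0.215% ± 0.0563 with doxycycline for SR protein genes (n = 3), and 0.781% ± 0.0737 and 0.686% ± 0.337 for hnRNP genes, a fall smaller than the spread between treated replicates. The summed level of the 9 bone and mesenchymal markers was 258 to 636 CPM in uninduced and 504 to 956 in induced libraries (medians 407 and 889), most of the difference being VIM, and that of 5 epithelial, blood and liver markers 5.27 to 12.8 and 8.04 to 19.2 (medians 6.71 and 16.8), most of it EPCAM, with ALB at 0. The part of these shifts in the results was not tested. Levels are not compared between the lines, which were sequenced at different sites with different read lengths.

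**Figure D1:**
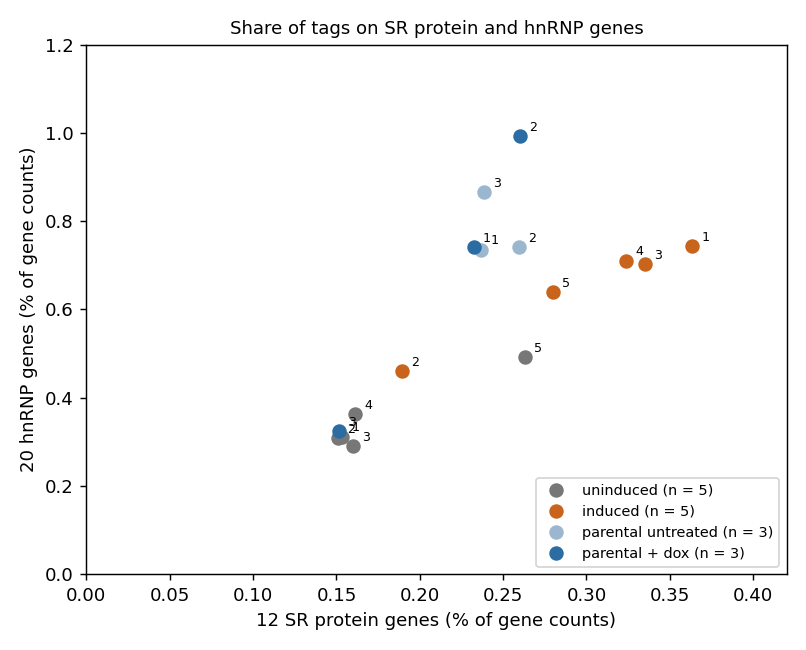
Share of gene counts on the 12 SR protein genes (horizontal axis, %) and on the 20 hnRNP genes (vertical axis, %) in each of the 16 libraries, with replicate numbers beside the points. Induced libraries other than replicate 2 lie at or above 0.280% and 0.639%, uninduced libraries other than replicate 5 lie at or below 0.161% and 0.363%, and treated parental replicate 3 lies away from the other parental libraries.

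Gene by gene, 11 of the 32 mRNAs had an adjusted P below 0.05 (the quasi-likelihood test of edgeR, with P values adjusted by Benjamini and Hochberg's method over all 13038 genes tested), 9 of them higher and 2 lower in induced cells. That is 34.4% of the members, where 39.8% of all genes tested were called. The members leaned upward: 28.1% were called higher and 6.25% lower, against 20.0% and 19.8% of all genes, 26 of 32 fitted changes were positive and 16 had an unadjusted P below 0.05 (53.3% of all genes did), with a median log2 fold change of 0.41 against 0.04 over all genes tested. Among SR proteins 2 were higher, 1 lower and 9 not called (median 0.31), and among hnRNPs 7 were higher, 1 lower and 12 not called (median 0.51). HNRNPH1 was the only member whose libraries did not overlap between the groups (3.13% of members, against 7.3% of all genes tested).

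**Figure D2:**
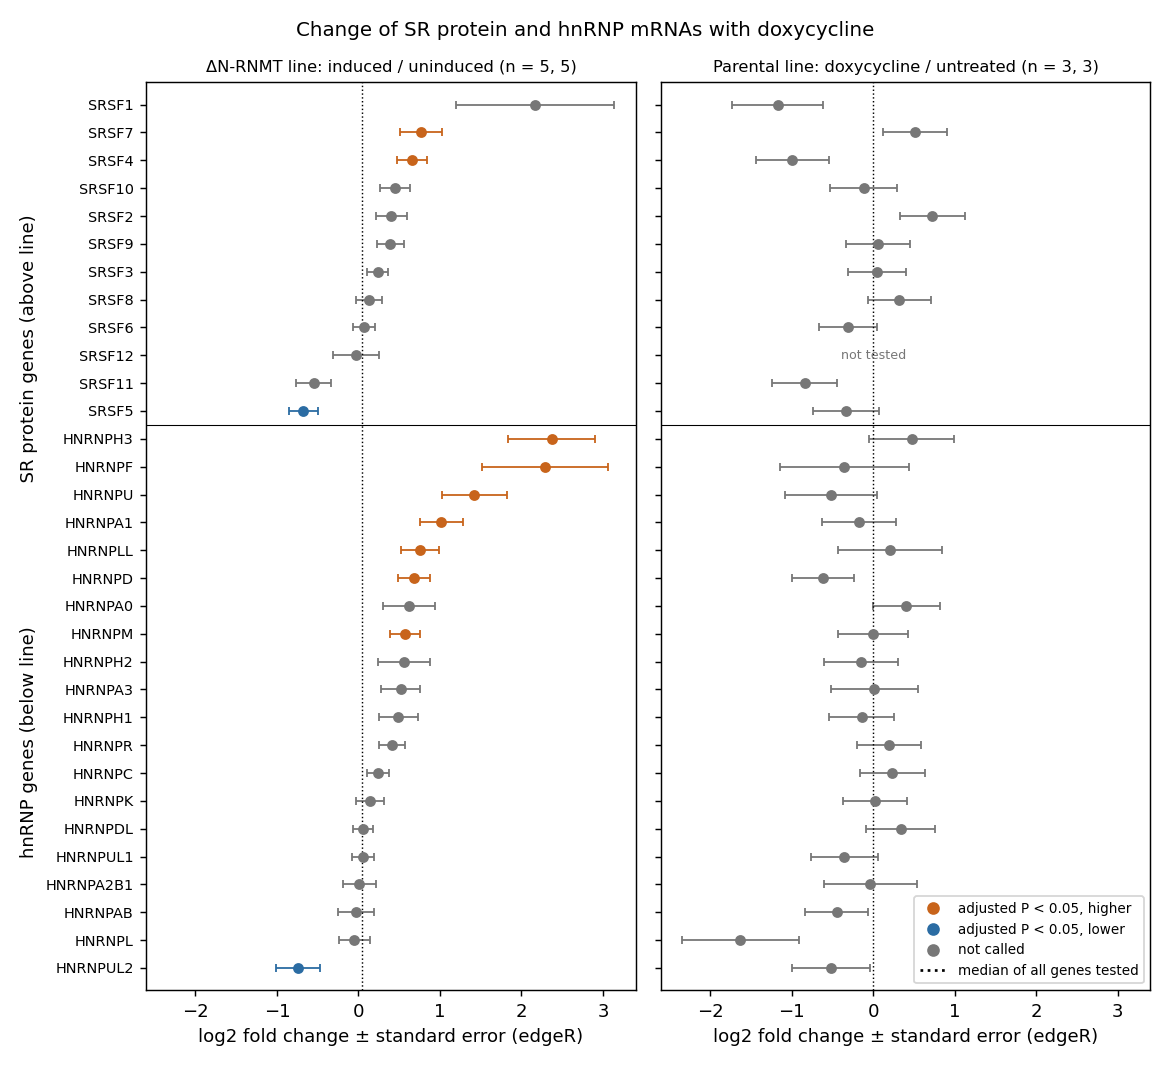
Log2 fold change with its standard error for each SR protein gene (above the line) and hnRNP gene (below it), in the ΔN-RNMT line on the left and the parental line on the right. Orange and blue points passed an adjusted P below 0.05; in the transgene line 9 members are orange and 2 blue, in the parental line none is coloured and SRSF12 was not tested. The dotted line is the median of all genes tested, 0.04 and −0.01.

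Of the SR proteins, SRSF7 and SRSF4 were called higher. SRSF7, which has a zinc knuckle and also serves as an adaptor for mRNA export, held 91.0, 80.9, 93.8, 103 and 191 scaled CPM in uninduced replicates 1 to 5 and 226, 118, 222, 197 and 189.8 in induced replicates 1 to 5. The uninduced libraries other than replicate 5 lay below every induced library. The change was 1.70-fold (log2 fold change 0.77 ± 0.26, adjusted P = 0.0364 in edgeR's test with Benjamini-Hochberg adjustment), and without both libraries that stood apart the log2 fold change was 1.17 ± 0.14. The call was lost in 8 of 10 fits with a library left out and with offsets for GC content, where the log2 fold change was 0.38 (adjusted P = 0.139). SRSF4, a member with a pair of RNA recognition motifs and a long arginine-serine tail, held 20.7, 22.9, 29.3, 22.6 and 26.7 scaled CPM in uninduced and 34.7, 27.6, 35.3, 47.7 and 47.0 in induced libraries. Its groups overlapped by induced replicate 2 against uninduced replicate 3, and it rose 1.57-fold (log2 fold change 0.65 ± 0.18, adjusted P = 0.0214), or by 0.78 ± 0.16 on the log2 scale without both libraries.

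SRSF5, a close relative of SRSF4 and SRSF6, went the other way. It held 488, 499.5, 644, 442 and 334 scaled CPM in uninduced and 312, 349, 298, 296 and 251 in induced libraries, where uninduced replicate 5 fell within the induced range and the other 4 uninduced libraries lay above it. The fall was 1.60-fold (log2 fold change -0.68 ± 0.18, adjusted P = 0.0194), and SRSF5 kept its call when any library but induced replicate 4 was left out (adjusted P = 0.0504 without that one). Without both libraries that stood apart the value was -0.84 ± 0.15. SRSF11, which contacts the splice site factor U2AF, had a log2 fold change of -0.55 ± 0.22 that was not called by edgeR (adjusted P = 0.0602). SRSF6 stood at 91.5 ± 6.81 scaled CPM uninduced and 96.1 ± 13.2 induced (SD, n = 5).

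SRSF1, the founding member of the family and a known oncogene product, had the largest fitted change of the SR proteins and no call. Its libraries held 40.7, 39.5, 28.3, 68.0 and 941 scaled CPM uninduced and 1510, 257, 1329, 1165 and 774 induced. Uninduced replicates 1 to 4 lay between 28.3 and 68.0 and induced replicates 1, 3, 4 and 5 between 774 and 1510, while uninduced replicate 5 was within the induced range and induced replicate 2 lay between both. The log2 fold change over all 10 libraries was 2.17 ± 0.97 (adjusted P = 0.0871), and without uninduced replicate 5 it was 4.50 ± 0.49 (adjusted P = 0.000410). With 509 to 25290 counts per library of the transgene line, counting error is small beside that spread. The gene lies at chr17:58000919-58007346 on the minus strand (GRCh38, GENCODE release 44).

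The remaining 7 SR protein genes were not called. Fitted log2 fold changes were 0.45 ± 0.19 for SRSF10, a splicing repressor when dephosphorylated (but -0.07 with GC offsets), 0.40 ± 0.19 for SRSF2, a marker of nuclear speckles, 0.39 ± 0.17 for SRSF9 and 0.24 ± 0.13 for SRSF3, the smallest family member and an export adaptor. SRSF8, a retrogene copy related to SRSF2, had 0.13 ± 0.16, and SRSF6 0.07 ± 0.14. SRSF12 was near the lower limit of the test, with 12 to 39 counts per library, and its -0.03 ± 0.28 rests on few tags.

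**Figure D3:**
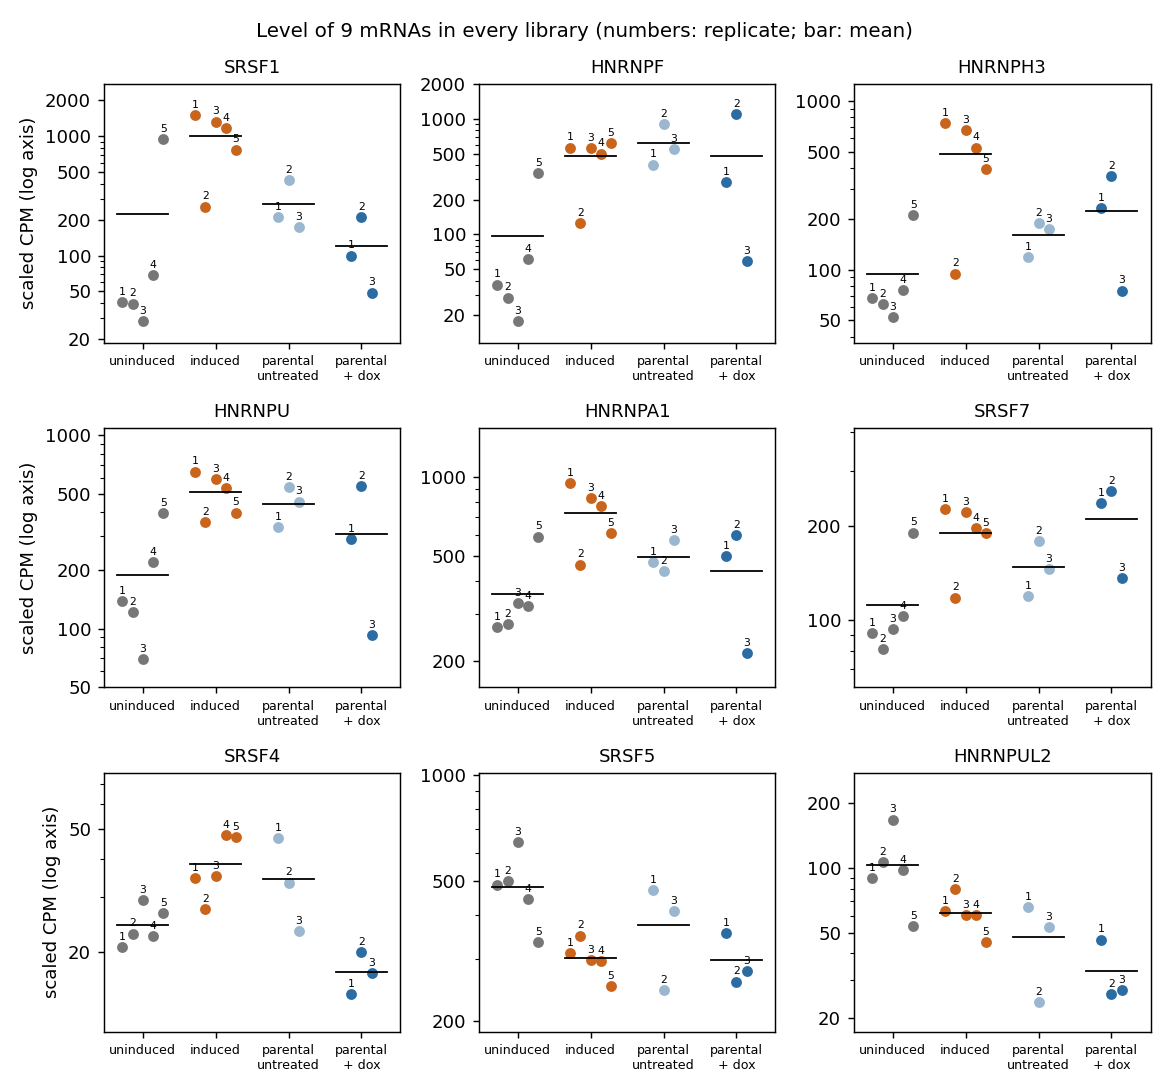
Scaled CPM (log axis) of 9 members in each library, grouped as uninduced, induced, parental untreated and parental with doxycycline, with replicate numbers and the group mean as a bar. Uninduced replicate 5 and induced replicate 2 lie toward the other group in SRSF1, HNRNPF, HNRNPH3 and SRSF7.

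Within the hnRNPs the F/H group, which binds tracts of G, held the largest changes. HNRNPH3 held 68.0, 62.5, 52.5, 75.8 and 210.2 scaled CPM in uninduced and 741, 94.6, 671, 529 and 393 in induced libraries, and HNRNPF held 36.9, 28.5, 17.8, 61.5 and 339 and 564, 126, 563, 501 and 615. In both genes uninduced replicate 5 was several times its group and induced replicate 2 well under its own. HNRNPH3 rose 5.18-fold (log2 fold change 2.37 ± 0.53, adjusted P = 0.0175) and HNRNPF 4.89-fold (log2 fold change 2.29 ± 0.77, adjusted P = 0.0357). Without both libraries the log2 fold changes were 3.16 ± 0.22 and 3.94 ± 0.33. HNRNPH3 kept its call with each library left out in turn, whereas HNRNPF kept it only without uninduced replicate 5 or without induced replicate 2. Both called genes lie on chromosome 10, HNRNPF at chr10:43385617-43409186 and HNRNPH3 at chr10:68331174-68343193 (GRCh38). The relatives HNRNPH1 and HNRNPH2 had log2 fold changes of 0.49 ± 0.24 and 0.56 ± 0.32 without a call. HNRNPH1 was at 96.3 to 273 scaled CPM uninduced and 280 to 327 induced, the wide group being the uninduced one. HNRNPH2 shares its strand with a readthrough transcript, RPL36A-HNRNPH2.

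HNRNPU was called higher and its relative HNRNPUL2 lower. HNRNPU, a large DNA- and RNA-binding protein of the nuclear scaffold, held 139, 122, 69.4, 220.2 and 397 scaled CPM uninduced and 650.4, 356, 595, 536 and 399 induced, with overlap only between uninduced replicate 5 and induced replicate 2. It rose 2.68-fold (log2 fold change 1.42 ± 0.40, adjusted P = 0.0214), or by 1.97 ± 0.30 on the log2 scale without both libraries, and its call held in 5 of 10 fits with a library left out. HNRNPUL2, a related protein with a role in the DNA damage response, held 89.7, 107, 168, 97.8 and 53.7 uninduced and 62.9, 79.6, 60.5, 60.6 and 45.2 induced. Uninduced replicate 5 was below 4 of the 5 induced libraries and the other uninduced libraries lay above all of them, and the fitted fall was 1.67-fold (log2 fold change -0.74 ± 0.26, adjusted P = 0.0442). It was -1.01 ± 0.20 on the log2 scale without both libraries. The call was lost in 8 of 10 fits with a library left out and with GC offsets, at -0.65 (adjusted P = 0.0739). The gene lies within the readthrough transcript HNRNPUL2-BSCL2 on the same strand. HNRNPUL1, the third of this type, had a log2 fold change of 0.06 ± 0.13.

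In the A/B group, whose members antagonise SR proteins at many exons, HNRNPA1 was called. It held 269, 275, 331, 323 and 592 scaled CPM in uninduced and 946, 463, 831, 773 and 610.4 in induced libraries. Uninduced replicate 5 exceeded induced replicate 2 and no other induced library, and HNRNPA1 rose 2.02-fold (log2 fold change 1.02 ± 0.26, adjusted P = 0.0182), a call kept with each of the 10 libraries left out, and by 1.40 ± 0.16 on the log2 scale without both. HNRNPA0 (0.62 ± 0.32) and HNRNPA3 (0.52 ± 0.24) had positive log2 fold changes that were not called. HNRNPA2B1, a reader of signals for RNA trafficking, and HNRNPAB stood at 0.01 ± 0.20 and -0.03 ± 0.22. With GC offsets HNRNPA2B1 was at -0.48 (adjusted P = 0.0849), and with GC offsets and the replicate block it was called lower, at -0.49 (adjusted P = 0.0336).

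HNRNPD, which binds AU-rich elements and acts in mRNA decay, and HNRNPM were called as well. HNRNPD held 272, 298, 375, 307 and 446 scaled CPM uninduced and 633, 366, 598, 585 and 540.0 induced. Induced replicate 2 was below uninduced replicates 3 and 5 and the other induced libraries lay above all uninduced ones, with a 1.60-fold rise (log2 fold change 0.68 ± 0.19, adjusted P = 0.0221). Without both libraries that stood apart the log2 fold change was 0.91 ± 0.14, and with GC offsets it was 0.35 (adjusted P = 0.0988). HNRNPM, a splicing regulator of epithelial and mesenchymal exons, held 172, 196, 257, 198 and 189 uninduced and 338, 209, 318, 372 and 265 induced. Here the highest uninduced library, replicate 3, lay above induced replicate 2, and the rise was 1.48-fold (log2 fold change 0.57 ± 0.18, adjusted P = 0.0313), or 0.65 ± 0.16 on the log2 scale without both libraries. Either gene kept its call in 4 of 10 fits with a library left out. HNRNPDL, the paralog of HNRNPD, had a log2 fold change of 0.06 ± 0.12.

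HNRNPLL, which regulates splicing of the leukocyte antigen CD45, was called and its paralog HNRNPL was not. HNRNPLL held 10.5, 9.36, 10.1, 13.4 and 20.1 scaled CPM uninduced and 24.4, 13.9, 23.9, 22.3 and 22.8 induced, a 1.69-fold rise (log2 fold change 0.76 ± 0.24, adjusted P = 0.0297) in which uninduced replicate 5 and induced replicate 2 crossed. Without both libraries the log2 fold change was 1.10 ± 0.15. The call was lost in 8 of 10 fits with a library left out and with GC offsets, at 0.32 (adjusted P = 0.160), and the difference between the paralogs was not tested. HNRNPL stood at 22.7 ± 4.55 scaled CPM uninduced and 22.0 ± 4.76 induced.

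HNRNPC, a core packaging protein that binds U tracts, and HNRNPK, a KH-domain protein that binds C-rich sequence, were not called. HNRNPC held 344, 373, 364, 349 and 457 scaled CPM uninduced and 434, 414, 456, 487 and 436 induced (log2 fold change 0.24 ± 0.13, adjusted P = 0.162), and its groups overlapped through uninduced replicate 5. HNRNPK held 82.5, 97.7, 112, 92.0 and 84.1 and 121, 96.0, 115, 114 and 71.6 (log2 fold change 0.15 ± 0.17, adjusted P = 0.492), with the lowest value of all in induced replicate 5. HNRNPR, which acts on RNA in the cytoplasm of neurons as well as in the nucleus, had a log2 fold change of 0.41 ± 0.16 at an adjusted P of 0.0561 and was not called, and with GC offsets its direction turned, at -0.17 (adjusted P = 0.483).

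The libraries that stood apart bore on both families. Uninduced replicate 5 was the highest uninduced library for 17 of 32 members (53.1%, against 38.9% of all genes tested) and induced replicate 2 the lowest induced library for 15 (46.9%, against 32.4%). RNMT was at 112 scaled CPM in uninduced replicate 5, the highest of its group, and at 360.4 in induced replicate 2, within its group. With both left out, a choice made after their values were seen, 17 members were called higher and 3 lower of 31 tested, where 64.3% of all genes tested were then called, 33.8% higher and 30.5% lower. These were 7 SR protein genes higher and 2 lower, and 10 hnRNP genes higher and 1 lower. SRSF1 then stood at 44.1 ± 16.9 and 1194 ± 314 scaled CPM (n = 4), a 26.8-fold rise (adjusted P = 3.35e-07). HNRNPF rose 15.3-fold, HNRNPH3 8.96-fold and HNRNPU 3.92-fold, and SRSF11 joined SRSF5 and HNRNPUL2 among those that fell, at a log2 fold change of -0.77 ± 0.18. Libraries of the groups then did not overlap for 20 of 32 members (62.5%), near the 59.4% of all genes tested. Uninduced replicate 3 stayed in that fit. It was the lowest uninduced library for HNRNPF and HNRNPU, which rose, and the highest for SRSF5 and HNRNPUL2, which fell. For SRSF4 and HNRNPM, which rose, it was the highest as well. Induced replicate 5 stayed in that fit as well, and the part of either library in these values was not tested.

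The number of members called also moved when any single library was left out. It was 3, 3, 8, 5 and 18 without uninduced replicates 1 to 5 in turn, and 4, 13, 4, 2 and 8 without induced replicates 1 to 5, while calls over all genes ran from 1869 to 7604. The shares were 6.45% of members and 14.5% of all genes without induced replicate 4, and 58.1% and 58.5% without uninduced replicate 5. Of these 10 fits, HNRNPA1 and HNRNPH3 kept their call in 10, SRSF5 in 9, SRSF4 in 7, HNRNPU in 5, HNRNPD and HNRNPM in 4, and SRSF7, HNRNPF, HNRNPLL and HNRNPUL2 in 2. With 1 surrogate variable in the fit 0 members were called by edgeR, and 1 gene in all. An unadjusted P below 0.05 was met by 10 of 32 members and by 3431 of all 13038 genes.

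**Figure D4:**
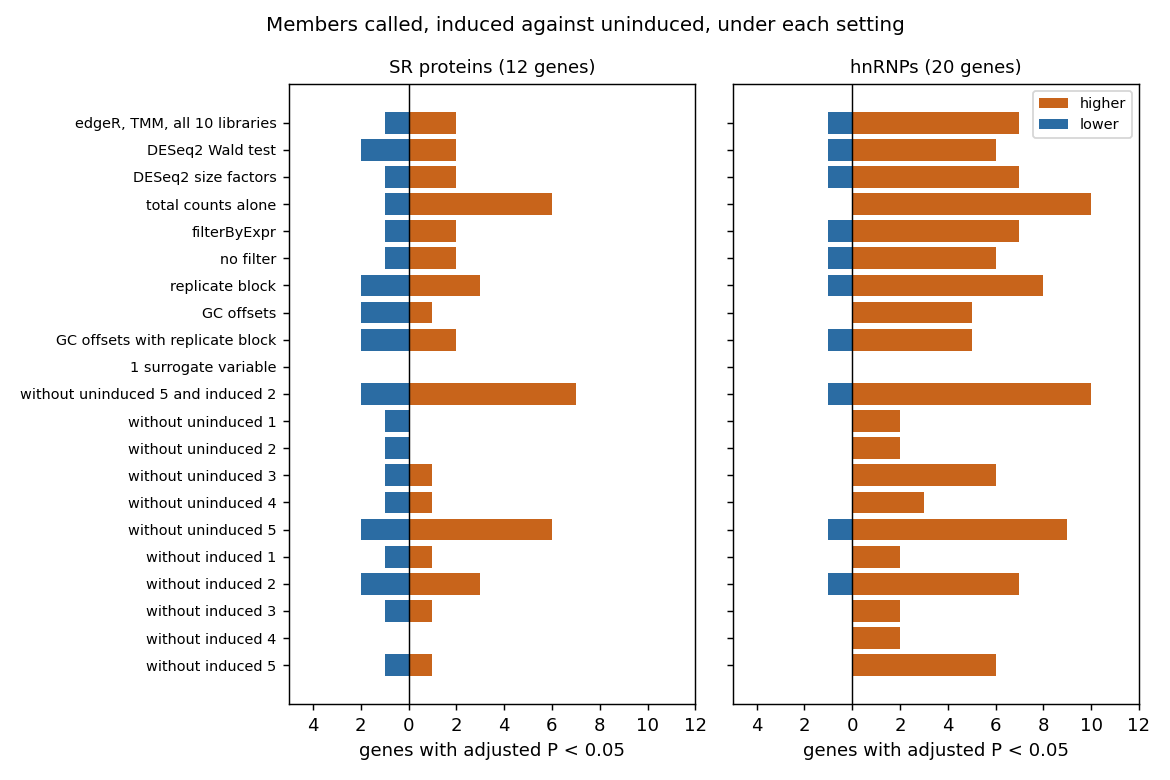
Number of SR protein genes (left, of 12) and hnRNP genes (right, of 20) called higher (orange) and lower (blue) in induced cells under each way of fitting the counts. The bars reach 7 and 10 higher without uninduced replicate 5 and induced replicate 2, and are empty with 1 surrogate variable.

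The median log2 fold change of SR proteins was 0.19 below that of hnRNPs (a difference of −0.19), and −0.04 without the libraries that stood apart. Within a library, the mean log2 scaled CPM of hnRNP genes minus that of SR protein genes was 0.67 ± 0.13 in uninduced and 0.86 ± 0.03 in induced libraries (SD, n = 5), from 0.47 to 0.80 and from 0.82 to 0.91. This score over the genes was lowest in uninduced replicate 3, and the groups did not overlap, by a narrow gap from 0.80 to 0.82. Its SR mean included SRSF12, which had only 12 to 39 counts per library. Whether the groups stay apart without that gene was not tested. In parental cells the score was 0.36 ± 0.10 without and 0.33 ± 0.28 with doxycycline (n = 3). There the SR mean was over 11 genes, without SRSF12, so its level cannot be set beside that of the transgene line, which used 12.

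Base composition moved with these results. Over the genes tested, transcripts called higher had a median GC content of 42.5% and those called lower 57.0%, around a median of 48.3%. SR protein transcripts had a median of 39.9% and hnRNP transcripts 42.3%, and members that were not called had 41.0% and those called higher 42.2%. With offsets for GC content in the fit, 6 members were called higher (SRSF4, HNRNPA1, HNRNPF, HNRNPH3, HNRNPM and HNRNPU) and 2 lower (SRSF5 and SRSF11). These are 25% of the members, where 26.7% of all genes were called in that fit, 11.9% higher and 14.8% lower. The family medians were then −0.08 for SR proteins and 0.24 for hnRNPs, beside −0.03 for all genes. Scaling by total counts alone moved the median of all genes from 0.04 to 0.28 and gave 16 members higher and 1 lower (53.1% called), where 41.6% of all genes were called, 30.8% higher and 10.7% lower.

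Many of these genes have copies elsewhere in the genome. GENCODE names 134 pseudogenes of 20 members, 74 of them of HNRNPA1, 16 of HNRNPA3 and 9 of HNRNPC. Tags aligned to several places were not counted. They numbered 0.561 to 1.33 per gene count in libraries of the transgene line and 0.773 to 1.44 in those of the parental line. Of the 20 members with named pseudogenes 6 were called higher and 0 lower (median log2 fold change 0.43), and of the 12 without, 3 higher and 2 lower (median 0.09). The part of lost tags in these values was not tested. In GENCODE 15 members overlap a gene on the opposite strand, the called HNRNPD, HNRNPH3, HNRNPLL, HNRNPM and HNRNPU among them, and since use of strand in the counting is not stated, tags of such neighbours cannot be told apart. RNA held back in the nucleus was checked by MALAT1, NEAT1, TUG1, KCNQ1OT1 and MEG3, whose summed level was 753 to 914 CPM in uninduced and 635 to 1066 in induced libraries, and MEG3 was at 0. Of the 4 of these RNAs tested, 1 was called lower in induced cells (25%, against 19.8% of all genes) and 0 higher, with a median log2 fold change of −0.14. In the comparison of the lines, 1 of the 3 of these RNAs tested was called with a higher response in the transgene line (33.3%, against 0.775% of all genes). The highest log2 fold change of these RNAs in the transgene line was 0.03. In the parental line the 3 tested ran from −2.57 to −0.50. Their part in the results was not tested.

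Partners of the families were counted from lists. Their shares are to be read against the 39.8% of all genes called. Of 11 kinases and importins of SR proteins 2 rose and 2 fell (36.4%): the kinase CLK1 (log2 fold change 0.62 ± 0.18, adjusted P = 0.0237) and the importin TNPO3, which carries SR proteins into the nucleus (0.60 ± 0.20, adjusted P = 0.0344), rose, and the importin TNPO2 (−1.17 ± 0.31, adjusted P = 0.0187) and the kinase CLK2 (−0.71 ± 0.22, adjusted P = 0.0285) fell. Of 22 SR-related proteins tested 4 rose and 0 fell (18.2%), among them the splicing activator TRA2B (0.64 ± 0.20, adjusted P = 0.0276). SCAF4 and SCAF8, which bind the tail of RNA polymerase II, had log2 fold changes of 0.68 ± 0.21 and 0.53 ± 0.17. The median of this list was 0.08 (U2AF1 did not pass the limit on low counts). Of 21 other hnRNP-like and related proteins 10 rose and 2 fell (57.1%, median 0.53), including NONO (0.62 ± 0.15, adjusted P = 0.0175) and SFPQ (0.92 ± 0.26, adjusted P = 0.0214), partners in nuclear paraspeckles, and RBMX (0.74 ± 0.18). PTBP1, which binds pyrimidine tracts, and RALY fell, by 0.53 and 0.94 on the log2 scale.

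Doxycycline alone was examined in the parental line. None of the 31 members tested was called by edgeR with Benjamini-Hochberg adjustment (0 called, 2 at an unadjusted P below 0.05, where 2.93% of all genes were, and 0 by DESeq2), and 0.0% of the 9124 genes tested were. The median log2 fold change was −0.12 for SR proteins and −0.09 for hnRNPs, beside −0.01 for all genes. Groups did not overlap for 4 members (12.9%, against 9.52% of all genes tested): SRSF2 was higher in treated libraries, and SRSF4, SRSF11 and HNRNPD were lower. MALAT1, an RNA retained in the nuclear speckles where SR proteins gather, was at 311 to 1350 CPM in untreated and 100 to 129 CPM in treated parental libraries, with no overlap, and its part in these values was not tested.

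The 4 members with the smallest P in that comparison all had negative changes. HNRNPL held 45.5, 20.1 and 8.09 scaled CPM in untreated replicates 1 to 3 and 3.93, 5.98 and 14.7 in treated ones, a log2 fold change of -1.63 ± 0.72 on 11 to 74 counts per library, with treated replicate 3 above untreated replicate 3. SRSF4 held 46.7, 33.5 and 23.4 and 14.6, 19.9 and 17.1 (-0.99 ± 0.45), with no overlap. SRSF11 held 244, 151 and 128 and 86.8, 86.1 and 119 (-0.84 ± 0.40), also with no overlap. For SRSF1, in which treated replicate 2 lay above untreated replicate 3, the values were 211, 428 and 172 and 99.7, 209.8 and 48.9 (-1.17 ± 0.56). Each had an adjusted P of 0.997 in edgeR's test. Treated replicate 3 was the lowest treated library for 23 of 31 members (74.2%, against 45.7% of all genes tested). Without it 0 members were called and 3 of 31 had an unadjusted P below 0.05 in edgeR's test, as had 834 of all 9482 genes tested.

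The response of the lines was compared by the interaction term over all 16 libraries, in which 2.98% of 12265 genes were called, 0.775% with a higher and 2.2% with a lower response in the transgene line. SRSF4 was the only member of 31 called (3.23%), with a difference of 1.42 ± 0.37 in log2 fold change, transgene line minus parental line (adjusted P = 0.04997 in edgeR's test). It rose with doxycycline in the transgene line and had a negative fitted change in the parental line. The call held in 4 of 16 fits with a library left out, where its adjusted P ranged from 0.0214 to 0.131. Next in order of P came HNRNPD (1.08 ± 0.33, adjusted P = 0.0684), HNRNPU (1.75 ± 0.69, adjusted P = 0.124) and SRSF1 (3.22 ± 1.34, adjusted P = 0.144). Without uninduced replicate 5 there were 6 members called, all with larger changes in the transgene line. That is 19.4% of 31 members, where 18.9% of all genes were called in that fit in both directions together. Of the 12125 genes, 1024 were called higher and 1266 lower. Tags that fell in no gene numbered 1.110 to 1.497 per gene count in parental libraries and 0.0744 to 0.106 in those of the transgene line. The mitochondrial share was 1.759% to 9.382% and 0.854% to 1.516% in the same order. These parental libraries also gave the result for doxycycline alone, and the part of either difference in it was not tested. The line, the sequencing site, the read length, the depth, the mitochondrial share and the tags that fell in no gene cannot be told apart in the interaction term.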

How the data were processed

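Libraries came from cytoplasmic poly(A) RNA, made with Lexogen's QuantSeq REV kit, which reads tags next to the poly(A) tail (75 nt reads in the transgene line, 150 nt in the parental line). The authors processed the reads with Lexogen's QuantSeq pipeline for GRCh38 and deposited unnormalized counts per gene. Aligner, annotation release, use of strand and treatment of duplicate tags are not given in the sources used here. Groups followed the titles.

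The 5 summary entries and 92 spike-in entries, all at 0, were kept out of library sizes. Testing, in genes whose base mean exceeded 20, was done in R 4.3.3 with edgeR 4.0.16 (TMM scaling, quasi-likelihood F-test, two-sided, Benjamini-Hochberg adjustment over every gene tested). Each line was fitted alone, and an interaction was fitted over all 16 libraries. Standard errors are the log2 fold change over the root of the F statistic. Per-library log2 values used a prior count of 2. Scripts were tested on simulated data. The alternatives, with DESeq2 1.42.0, sva 3.50.0 and Python 3.11.15, are given in the closing section. Counting error is small beside the spread between libraries except in SRSF12 and the parental line, and intervals would cover counting error only.

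The members, the related lists and the rule for naming genes were chosen with earlier results of these data known: every member is given in the transgene line, with each library for called members and for SRSF1, HNRNPA1, HNRNPC and HNRNPK, the 4 smallest P values elsewhere, and up to 3 called genes a direction in each related list. No replicate pair agreed within sampling noise (lowest chi-square per degree of freedom 4.26, induced replicates 1 and 3). That cannot show that the libraries are independent. Each was counted once because they are described as biological replicates. Protein sequences and splicing itself were not analysed here.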

Additional observations from a re-analysis of the deposited data

Results flagged for a closer look

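In uninduced libraries, 6 of 32 members (18.8%) had 1 library far outside the other 4 by Dixon's criterion, against 10.6% of all genes tested, and chance flags about 1 in 20. All 6 were high in uninduced replicate 5: SRSF1 at 941 scaled CPM, SRSF7 at 191, SRSF9 at 261, HNRNPA1 at 592, HNRNPC at 457 and HNRNPH3 at 210. In induced libraries 4 members (12.5%) met the criterion, against 13.1% of all genes tested. Induced replicate 2 was low for SRSF7 at 118 scaled CPM, HNRNPF at 126 and HNRNPLL at 13.9, and induced replicate 5 was high for SRSF6 at 119. SRSF7 met it in both groups.

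SRSF4 was the 1 member of 31 (3.23%, beside 2.98% of all genes) called in the test of the difference between the lines, by 1.42 on the log2 scale, transgene line minus parental line. Its adjusted P was 0.04997 in edgeR's test, and the call was lost in 12 of 16 fits with a library left out, with filterByExpr, with no filter and with the replicate block. The causes of these values were not tested.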

How the results depend on the processing

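The 11 members called in induced cells became 17 with total counts alone, 0 with 1 surrogate variable and 20 without uninduced replicate 5 and induced replicate 2. With the surrogate variable 10 members had an unadjusted P below 0.05 in edgeR, beside 3431 of 13038 genes. In the count of families that follows, the order of these 3 fits is kept. The 3 SR protein genes became 7, 0 and 9 in the same order and 5 with the replicate block. The 8 hnRNP genes became 5 with GC offsets and 0 with the surrogate variable. The difference of family medians, −0.19, was −0.32 with GC offsets, −0.34 with GC offsets and replicate block, −0.038 with the surrogate variable and −0.038 without both libraries. In the comparison of the lines, the 1 member called became 2 with DESeq2, 2 with total counts alone and 0 with filterByExpr, no filter or the replicate block. Those 2 are 6.45% of 31 members. Over all 12265 genes, the 365 called became 1478 with DESeq2 and 506 with total counts alone. Leaving out 1 library gave 2 to 18 members, 0 to 8 SR protein genes, 2 to 10 hnRNP genes, −0.27 to −0.07 for the medians and 0 to 6 members between the lines. No member was called in the parental line under any alternative run.

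Same-numbered libraries did not pair: correlations of their deviations ran from −0.373 to 0.625 in the transgene line, where 1 of 5 libraries correlated best with its own number. The replicate block gave 14 members called (43.8%, beside 39.8% of all genes), and SRSF1 then had a log2 fold change of 3.67 (adjusted P = 0.0196 in edgeR).

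The fitted changes of 13 members, 0 of them called, turned sign under at least 1 alternative, and 2 of them, HNRNPR and SRSF10, had been over 2 SE from 0. HNRNPA2B1 was at −0.028 with DESeq2, −0.028 with its size factors, −0.031 with the replicate block, −0.48 with GC offsets, −0.49 with both and −0.02 without both libraries. HNRNPL was at 0.20 with total counts, 0.13 with GC offsets with and without the block and 0.057 with the surrogate variable. HNRNPAB was at 0.23, 0.14, 0.15 and 0.39 under total counts, GC offsets, GC offsets with block and the surrogate variable. SRSF12 was at 0.19 with total counts and HNRNPUL1 at −0.0088 with the surrogate variable. With GC offsets, and then with the block as well, HNRNPC was at −0.15 and −0.15, SRSF3 at −0.19 and −0.19, SRSF6 at −0.33 and −0.34, HNRNPR at −0.17 and −0.16, HNRNPDL at −0.12 and −0.12, HNRNPK at −0.22 and −0.22, SRSF10 at −0.066 and −0.066 and SRSF8 at −0.10 and −0.073. The causes were not tested. With 1 library left out, HNRNPA2B1 ran from −0.088 to 0.15, HNRNPL from −0.19 to 0.022, HNRNPAB from −0.14 to 0.11, SRSF6 from −0.018 to 0.11, SRSF12 from −0.11 to 0.090 and HNRNPUL1 from −0.025 to 0.083.

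Tags tell how much of an mRNA ends at its poly(A) sites and nothing of protein or splicing. In the parental line 21 to 78 counts of SRSF4 and 11 to 74 of HNRNPL limit precision.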

Other observations

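In parental cells the lists of partners, of which 0 genes were called, had these medians beside −0.01 for all genes tested: −0.46 log2 fold change over 22 SR-related proteins, of which 19 had a negative value, −0.29 over 21 other hnRNP-like and related proteins, and −0.09 over 10 kinases and importins of SR proteins.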
